A study of Mus musculus with 12 samples.

Results

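The 49 genes described here encode the machinery that copies DNA (28 genes) and the machinery that divides the copied chromosomes (21 genes), out of 45706 genes in the count table. They were taken by name and not by their values. RNA was measured by sequencing of SMART-Seq libraries in 4 groups of 3 biological samples, all mouse cells of C57BL/6 strain derived from embryonic stem cells. Baseline libraries came from glial progenitors labelled as negative for Sox1, a transcription factor of the neuroepithelium, without sorting. The study derived the cells of all 4 groups from embryonic stem cells with GFP knocked into *Sox1*. The progenitors carry GFP in 1 copy of that gene. Sox1posGP libraries came from sorted glial progenitors positive for Sox1, in which dCas9-VP64, a Cas9 that cannot cut fused to a transcriptional activator, had been directed to the *Sox1* promoter. NSC libraries came from unsorted neuroepithelial cells, and NR libraries from neural rosettes sorted for GFP. Each dCas9-VP64 line is a clone, and the line behind each library is not given in the sources used here. In each of Sox1posGP against Baseline, NR against Baseline and NR against NSC, 1 group was sorted and the other was not. In these comparisons sorting and group cannot be told apart. The study expanded progenitors with added bFGF and EGF, and NSC came from neural induction of embryonic stem cells. It kept dCas9-VP64 lines under blasticidin and used puromycin to select cells with guide RNA, which directs dCas9-VP64. Whether Baseline carried dCas9-VP64 or guide RNA is not stated in the study's text. Where groups differ in culture, drug or construct, these cannot be told apart from group.

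Cells load the Mcm2 to Mcm7 helicase onto origins in G1, activate it with Cdc45 and the GINS complex, and copy DNA in S phase with polymerases held by the Pcna clamp. Cyclin B with Cdk1 then drives entry into mitosis, where Aurora and Polo kinases, kinetochore proteins and kinesins separate the chromosomes and the anaphase-promoting complex ends the process. Genes of the first kind are known targets of E2F transcription factors around the start of S phase, and many of the second kind peak later through a promoter element called CHR (cell cycle genes homology region), bound by the DREAM and MuvB complexes, often beside boxes bound by NF-Y.

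The promoters of both sets are shown first because the counts of these elements differ between the sets. The letters searched on both strands were TTTCCCGC, TTTCGCGC, TTTGCCGC and TTTGGCGC for E2F, TTTGAA for CHR and CCAAT for NF-Y, in windows from 250 bases before to 50 bases after the start of each gene. A window counted once for a motif however many matches it held. The 2 E2F matches of *Mcm5* overlap and are capitalised as 1 run, and a second CHR match of *Ccnb2* lies past its start and is not printed. The sequences are from RefSeq on GRCm38.p6, and 40 of the 49 members had a window. Below, 5′ to 3′, are stretches before the start of 3 genes of each set, with every E2F, CHR or NF-Y match in capitals.
Orc1 (chr4:108579304-108579453, plus strand): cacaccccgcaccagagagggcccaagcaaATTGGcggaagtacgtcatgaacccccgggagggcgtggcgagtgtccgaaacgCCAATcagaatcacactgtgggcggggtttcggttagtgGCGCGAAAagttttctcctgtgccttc
Mcm5 (chr8:75109259-75109508, plus strand): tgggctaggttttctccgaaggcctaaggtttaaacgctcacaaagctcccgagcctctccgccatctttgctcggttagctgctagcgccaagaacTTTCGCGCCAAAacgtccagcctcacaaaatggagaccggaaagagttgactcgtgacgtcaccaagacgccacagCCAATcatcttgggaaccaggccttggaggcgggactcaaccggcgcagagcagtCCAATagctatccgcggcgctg
Rrm2 (chr12:24708104-24708253, plus strand): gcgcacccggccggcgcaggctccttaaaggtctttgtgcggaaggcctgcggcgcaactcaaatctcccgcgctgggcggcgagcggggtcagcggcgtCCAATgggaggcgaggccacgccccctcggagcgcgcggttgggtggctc
Ccnb2 (chr9:70421555-70421804, minus strand): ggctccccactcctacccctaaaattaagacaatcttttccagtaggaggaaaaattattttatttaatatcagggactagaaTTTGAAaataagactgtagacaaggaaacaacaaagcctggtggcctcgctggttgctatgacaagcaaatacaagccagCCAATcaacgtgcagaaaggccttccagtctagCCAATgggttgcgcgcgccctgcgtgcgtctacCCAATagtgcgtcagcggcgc
Mki67 (chr7:135716380-135716529, minus strand): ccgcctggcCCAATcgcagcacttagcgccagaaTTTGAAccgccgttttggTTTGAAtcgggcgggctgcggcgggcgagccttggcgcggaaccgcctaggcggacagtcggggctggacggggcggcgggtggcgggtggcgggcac
Top2a (chr11:99024190-99024439, minus strand): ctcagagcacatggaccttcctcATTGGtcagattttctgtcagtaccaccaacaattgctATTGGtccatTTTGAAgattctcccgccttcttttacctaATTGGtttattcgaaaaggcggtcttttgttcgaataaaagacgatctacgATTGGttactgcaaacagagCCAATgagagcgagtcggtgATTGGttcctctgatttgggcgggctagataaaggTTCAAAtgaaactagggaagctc

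Of 23 replication windows, 11 held an E2F match (47.8%), against 1 of 17 mitosis windows (5.88%) and 2.26% of all 32851 windows. With forms 1 base shorter the shares were 65.2%, 17.6% and 9.57%. CHR matches ran the other way, in 12 of 17 mitosis windows (70.6%), 4 of 23 replication windows (17.4%) and 17.9% of all windows. NF-Y boxes were in 88.2% of mitosis windows, 69.6% of replication windows and 37.4% of all windows. In the sequences above, *Orc1* and *Mcm5* carried E2F letters, and *Mki67*, *Top2a* and *Ccnb2* carried CHR letters. *Rrm2* held neither the E2F nor the CHR letters in its window, and *Ccnb1* held 2 NF-Y boxes and neither of the others. Among genes of the same pathways that are not members, E2F letters were in 26.5% of 34 other replication windows (52.9% with the shorter forms) and CHR letters were in 69.6% of 46 other mitosis windows. A match is a description of letters and not of binding.

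**Figure D1:**
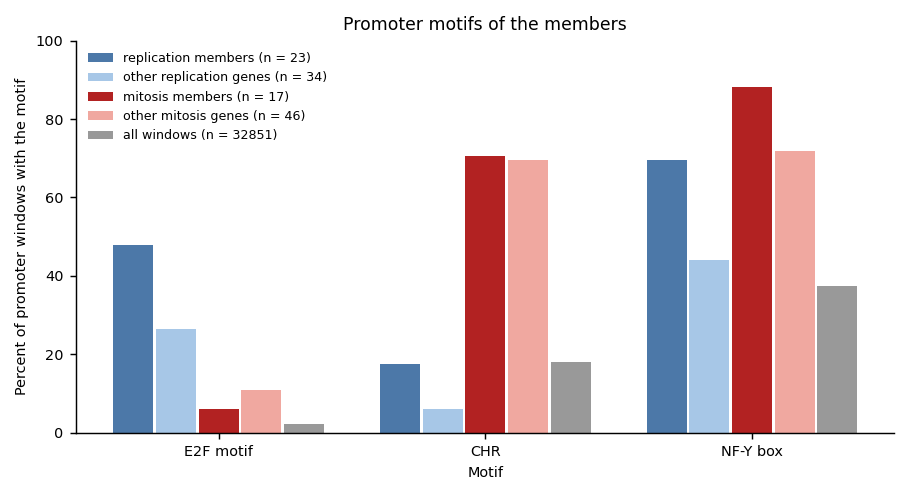
Bars give the percent of promoter windows (vertical axis) that hold each motif (horizontal axis) for the replication and mitosis members, for other genes of both pathways and for all windows, with the number of windows in the key. E2F letters were in 47.8% of replication and 5.88% of mitosis members, CHR letters in 17.4% and 70.6%.

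Total counts per library were 4939268 to 18351483 in Baseline, 3407066 to 6315574 in Sox1posGP, 29046205 to 43095688 in NSC and 16707006 to 34594885 in NR. All 49 members passed the filter on low counts. *Sox1* was higher than in Baseline in Sox1posGP (log2 fold change 1.97, SE 0.43), NSC (3.37, SE 0.41) and NR (1.48, SE 0.40), and it was lower in NR than in NSC by a log2 fold change of -1.89 although NR was the sorted group. The NR libraries were at 4.62, 20.0 and 19.2 CPM of *Sox1* (counts scaled to a library total of 1e6, with TMM) and the Baseline libraries at 4.83, 6.00 and 5.43, so NR replicate 1 lay below every Baseline library and went against its label. Summed glial progenitor markers were 6101 to 6513 CPM in Baseline, 3385 to 3582 in Sox1posGP, 433 to 718 in NSC and 197 to 327 in NR. Of 7 neuroepithelium markers the sums were 526 to 607 CPM in Baseline, 583 to 610 in Sox1posGP, 1748 to 1837 in NSC and 458 to 980 in NR, so that NR overlapped the progenitors. In Sox1posGP 3 of the 7 were called higher than Baseline and 2 lower (background 21.6% and 22.7%), which the sums do not show. *Sox2* was at 254 to 308 CPM in Baseline and 76.8 to 86.6 in Sox1posGP, and *Nes* at 75.5 to 101 and 220 to 236. The libraries labelled NR also held 691 to 1251 CPM of 6 pluripotency markers, against 25.6 to 69.2 in NSC and 2.92 to 3.91 in Baseline. Of 6 mesenchyme markers they held 2079 to 7593 CPM, with 1783 to 3425 in NSC and 19.6 to 25.1 in Baseline. Of 8 neuron markers, 6 were called higher and 1 lower in NSC and in NR, with medians over the list of 4.75 and 3.97 on the log2 scale. The lower marker was *Map2* (-2.37 and -3.60), at 454 to 480 CPM in Baseline, 51.6 to 110 in NSC and 26.0 to 53.9 in NR. *Map2* led the summed level in the progenitors, and this sum overlapped between NR (398 to 603 CPM) and Baseline (481 to 509). *Tubb3*, a neuronal tubulin, was at 4.6 to 6.09 CPM in Baseline, 235 to 263 in NSC and 101 to 167 in NR. The part of these other cell types in the differences below was not tested. In bulk RNA, fewer cycling cells and less RNA per cell cannot be told apart.

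Expression of both sets was higher in the libraries labelled NSC and NR than in the glial progenitors, and in Sox1posGP the sets held rises and falls side by side. The 28 replication genes made up 0.332 to 0.343% of all counts in Baseline, 0.389 to 0.417% in Sox1posGP, 0.630 to 0.668% in NSC and 0.685 to 0.736% in NR. The 21 mitosis genes made up 0.353 to 0.381%, 0.405 to 0.411%, 0.552 to 0.604% and 0.551 to 0.574% in the same order. After TMM scaling, as used for all CPM here, the replication shares were 0.342 to 0.375% in Baseline and 0.381 to 0.413% in Sox1posGP, while the mitosis shares of Sox1posGP, 0.396 to 0.406%, lay within the 0.364 to 0.417% of Baseline. Every NSC and NR library was above every progenitor library in both shares on either scale. Baseline was the lowest group for 21 of 28 replication genes and for 11 of 21 mitosis genes. The order NR, NSC, Sox1posGP, Baseline from high to low held for 14 replication and 4 mitosis genes. These counts were not made over all genes tested, of which 44.4% were called higher than Baseline in NSC and 45.6% in NR. Whether they are particular to the members is therefore not known.

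**Figure D2:**
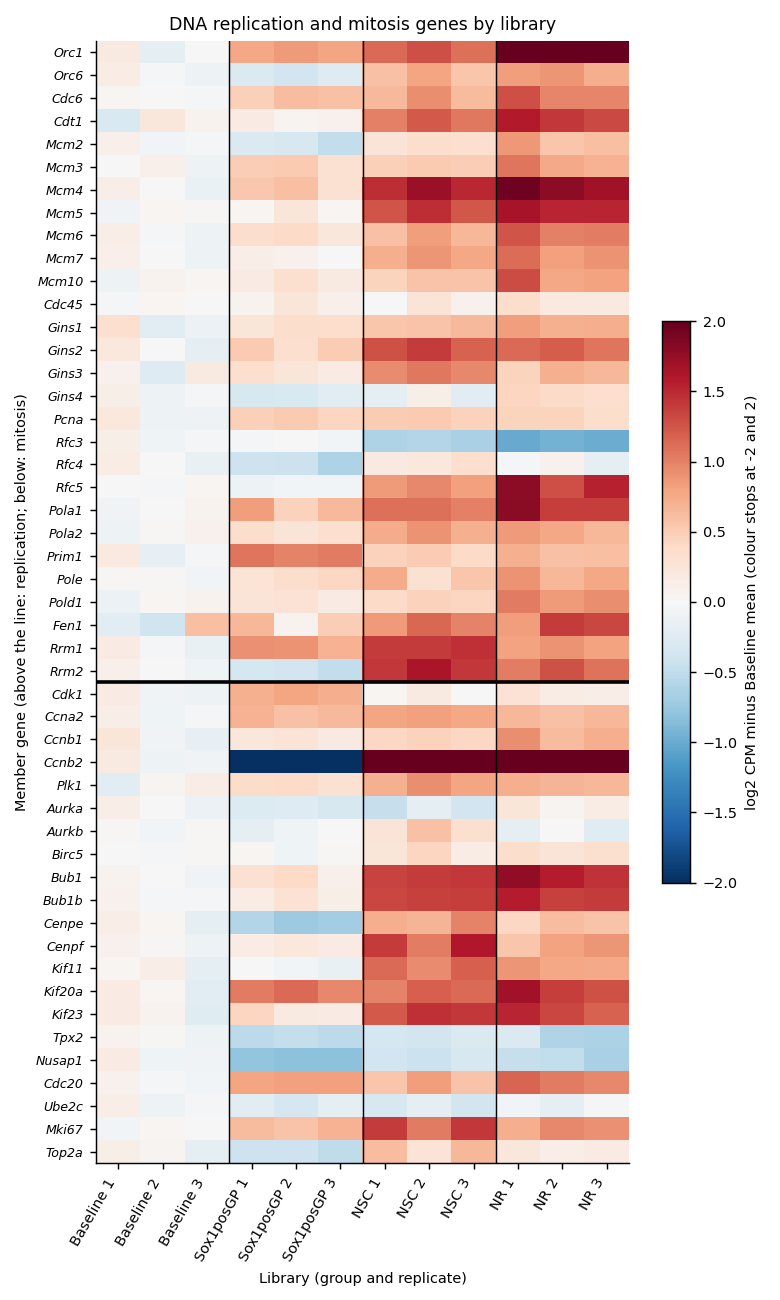
Each row is a member gene, each column a library, and the colour is the log2 CPM minus the mean of that gene in Baseline (red higher, blue lower; colours stop at -2 and 2). *Ccnb2* is low in all 3 Sox1posGP libraries and high in NSC and NR, and *Rfc3*, *Tpx2* and *Nusap1* are blue where most rows are red.

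Members were called changed at an adjusted p under 0.1 by the quasi-likelihood test of edgeR, Benjamini-Hochberg adjusted over 17003 genes, which is the false discovery rate of the study. Sox1posGP, NSC and NR were each compared with the same 3 Baseline libraries, so these comparisons share their controls. In Sox1posGP against Baseline, 13 replication genes were higher and 5 lower, and 8 mitosis genes were higher and 7 lower, where 21.6% of all genes tested were higher and 22.7% lower. The median log2 fold change was 0.26 over the replication genes and 0.16 over the mitosis genes, against 0.00 over all genes. In NSC against Baseline, 25 replication genes were higher and 1 lower, and 16 mitosis genes were higher and 4 lower (background 44.4% higher and 33.7% lower). The medians were 0.72 and 0.79, against 0.20 over all genes.

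In NR against Baseline, 26 replication genes were higher and 1 lower, and 15 mitosis genes were higher and 2 lower (background 45.6% and 34.1%), with medians of 0.90 and 0.68 against 0.19 over all genes. In NR against NSC, 15 replication genes were higher and 5 lower, and 7 mitosis genes were higher and 7 lower (background 30.0% and 26.6%). The medians there were 0.23 for replication, -0.02 for mitosis and 0.01 for all genes. In NR against NSC, 10 calls of members were lost without NR replicate 1, 8 without NSC replicate 3 and 7 without NSC replicate 1. Those of *Cdt1*, *Mcm4*, *Mcm5*, *Prim1*, *Bub1* and *Ube2c* were lost each time. The 7 mitosis genes higher in NR than in NSC became 4 without NSC replicate 1 and 4 without NR replicate 1, and the 5 replication genes lower in Sox1posGP became 3 without Baseline replicate 1. Fewer changes passed 2-fold. In Sox1posGP 1 replication and 1 mitosis gene were higher by more than that (background 9.18%) and 1 mitosis gene was lower (6.4%). In NSC 9 replication and 8 mitosis genes were higher (29.5%) and in NR 11 and 6 (31.3%), with 0 members lower in either (17.3% and 17.4%). In NR against NSC 1 replication gene was higher (14.0%) and 0 members were lower (5.56%).

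**Figure D3:**
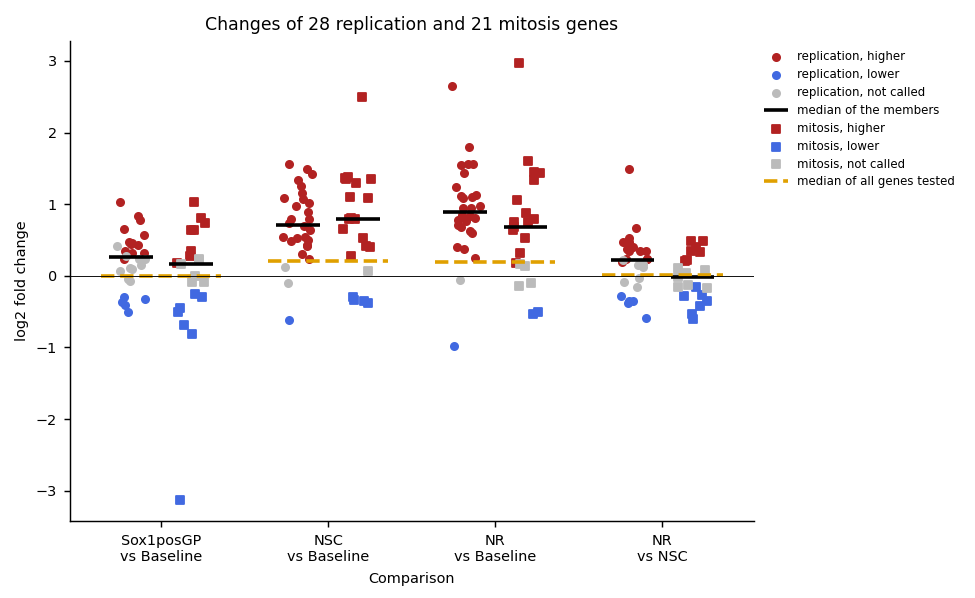
Each point is the log2 fold change (vertical axis) of a replication gene (circle) or mitosis gene (square) in a comparison (horizontal axis), red where called higher, blue where called lower and grey where not called; black lines are medians over the members and dashed lines the median of all genes tested. *Ccnb2* is the lowest point in Sox1posGP against Baseline, at -3.13, and the highest in NR against Baseline, at 2.98.

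Set beside each other within each library, the mean log2 CPM of the mitosis genes minus that of the replication genes was -0.27 ± 0.003 (SD, n = 3) in Sox1posGP relative to the Baseline mean, -0.02 ± 0.06 in NSC and -0.23 ± 0.02 in NR, where the Baseline libraries themselves had an SD of 0.06. The direction turned with the summary used: with the median level of each set in place of the mean, the values were 0.32, 0.60 and 0.13. Without *Ccnb2* they were -0.12, -0.11 and -0.34, and as the difference between median changes the Sox1posGP value was -0.10. No test was made of these means over members.

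Every member of origin licensing rose in NSC and NR. The 10 members of origin recognition and helicase loading were all higher than Baseline in both (background 44.4% and 45.6%). Their median log2 fold changes were 0.76 and 1.09. Origin genes outside the members were counted among the other replication genes below. *Orc1*, the large subunit of the origin recognition complex, was at 13.8, 10.7 and 12.3 CPM in Baseline, 20.8, 22.1 and 21.2 in Sox1posGP, 26.8, 29.8 and 26.3 in NSC and 101, 64.0 and 69.9 in NR. Each group lay wholly above the one before. The log2 fold change against Baseline was 0.78 (SE 0.18, adjusted p = 0.00309) in Sox1posGP, 1.15 (SE 0.16) in NSC and 2.65 (SE 0.17, adjusted p = 6.69e-09) in NR, in edgeR's quasi-likelihood test. Against NSC it was higher in NR by a further 1.50 (SE 0.15), and without NR replicate 1 these NR values were 2.39 and 1.27. NR replicate 1 was the highest of the 12 libraries for *Orc1*. Among NR libraries it was also the highest for *Pou5f1*, a pluripotency factor, at 133 CPM against 74.8 and 95.5 in the others. It also had the highest NR sum of mesenchyme markers (7593 CPM) and the lowest of neuroepithelium markers (458 CPM). The part of these cell types in *Orc1* was not tested.

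Of the licensing factors that load the helicase, *Cdc6* was higher than Baseline in every other group, with log2 fold changes of 0.56 in Sox1posGP, 0.74 in NSC and 1.08 in NR. *Cdt1*, its partner, was higher in NSC (1.09) and NR (1.43), and its value in Sox1posGP was 0.09 (adjusted p = 0.627, edgeR). *Orc6*, the smallest subunit of the origin recognition complex, was lower in Sox1posGP (-0.32, a call lost without Baseline replicate 1) and higher in NSC (0.64) and NR (0.81).

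The 6 subunits of the Mcm2 to Mcm7 ring did not move in proportion. *Mcm4* was at 156, 142 and 129 CPM in Baseline, 205, 216 and 175 in Sox1posGP, 396, 464 and 404 in NSC and 549, 489 and 452 in NR. It was higher than Baseline in all 3 groups by log2 fold changes of 0.48 (SE 0.11), 1.56 (SE 0.11) and 1.80 (SE 0.11). *Mcm5* was at 211, 228 and 225 CPM in Baseline, 227, 261 and 228 in Sox1posGP, 530, 618 and 524 in NSC and 690, 639 and 635 in NR. Its Sox1posGP libraries overlapped Baseline (0.11, adjusted p = 0.363, edgeR), and it was higher in NSC (1.33, SE 0.09) and NR (1.57, SE 0.09). *Mcm2*, a routine stain for cycling cells, was at 475, 429 and 430 CPM in Baseline, 362, 355 and 315 in Sox1posGP, 529, 567 and 552 in NSC and 813, 650 and 675 in NR. It was lower in Sox1posGP (-0.37, SE 0.10, adjusted p = 0.00711) and higher in NSC (0.30, SE 0.09) and NR (0.68, SE 0.09), so that this marker and *Mcm4* were called in opposite directions in Sox1posGP.

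Expressed as a share of the summed RPKM (CPM per kilobase of exon) of the 6 subunits, *Mcm2* made up 16.8% ± 0.545 (SD, n = 3) in Baseline, 11.5% ± 0.273 in Sox1posGP, 11.4% ± 0.415 in NSC and 12.2% ± 0.376 in NR. *Mcm4* made up 10.4% ± 0.457, 12.9% ± 0.556, 16.9% ± 0.398 and 16.5% ± 0.622 in the same order. The Baseline libraries were the highest for *Mcm2* and the lowest for *Mcm4*, with no overlap with any other group. *Mcm3* made up 16.2% ± 0.944 in Baseline and 19.5% ± 0.310 in Sox1posGP, but 12.6% ± 0.589 in NSC and 13.2% ± 0.674 in NR, and *Mcm5* made up 14.6% ± 1.26, 13.9% ± 0.876, 20.1% ± 0.676 and 19.6% ± 0.941. These shares do not depend on the scaling between libraries. *Mcm6* had 16.2% to 20.1% and *Mcm7* 20.8% to 23.8% as group means. As log2 fold changes against Baseline, in the order Sox1posGP, NSC and NR, *Mcm3* was higher in all 3 groups (0.44, 0.50 and 0.85), as was *Mcm6* (0.32, 0.69 and 1.09, the first lost without Baseline replicate 2), while *Mcm7* had 0.07, not called, then 0.79 and 0.95.

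**Figure D4:**
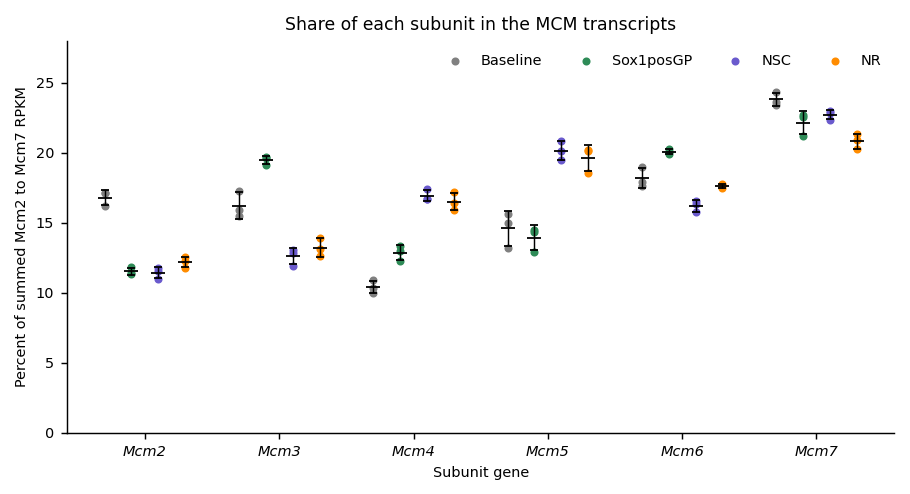
Points are libraries, bars the mean and SD of 3, and the vertical axis is the percent of the summed RPKM of *Mcm2* to *Mcm7* for each subunit gene (horizontal axis). *Mcm2* drops from 16.8% in Baseline to between 11.4% and 12.2% in the other groups, and *Mcm4* rises from 10.4% to 16.9% in NSC.

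Helicase activation genes rose less evenly. Of *Mcm10*, *Cdc45* and the 4 GINS genes, *Gins2* was called higher (0.43) and *Gins4* lower (-0.29) in Sox1posGP. These were 16.7% in each direction, below the background of 21.6% higher and 22.7% lower. In NSC 4 were higher and in NR all 6 (background 44.4% and 45.6%). In Sox1posGP, *Mcm10*, *Cdc45*, *Gins1* and *Gins3* were called as well under upper-quartile scaling and in a fit of only the groups compared, and the call of *Gins4* was lost without Baseline replicate 1, Sox1posGP replicate 1 or Sox1posGP replicate 2 and on thinning. *Gins2* was higher in NSC by 1.26 (SE 0.11) and in NR by 1.11 (SE 0.11), but it shares 2758 of its 4097 exon bases with *Gse1* on the other strand, so its values are uncertain. *Gins4* had a log2 fold change of -0.10 in NSC (adjusted p = 0.355, edgeR) and of 0.37 in NR. *Cdc45*, which joins GINS on the helicase, ranged from 58.3 to 77.0 CPM over all 12 libraries and was called in NR (0.25), a call lost without NR replicate 1. *Gins1* and *Gins3* were higher in NSC (0.55 and 0.98) and NR (0.71 and 0.60), and *Mcm10*, which helps the helicase start unwinding, was higher in NSC (0.53) and NR (0.98).

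At the fork, *Pcna*, the sliding clamp and a standard proliferation marker, was at 179, 144 and 143 CPM in Baseline, 215, 221 and 207 in Sox1posGP, 220, 221 and 213 in NSC and 210, 211 and 197 in NR. All 9 other libraries lay above Baseline and close together, with log2 fold changes of 0.46, 0.49 and 0.40 (SE 0.09 each). *Prim1*, the catalytic subunit of primase, was at 77.8, 60.4 and 66.2 CPM in Baseline, 143, 135 and 140 in Sox1posGP, 93.2, 96.0 and 88.1 in NSC and 111, 102 and 103 in NR. It was the replication gene with the largest rise in Sox1posGP (1.02, SE 0.09, adjusted p = 1.78e-06, edgeR), and the only replication gene highest in that group. The polymerase alpha genes *Pola1* (0.65) and *Pola2* (0.32) and the replicative polymerases *Pole* (0.35) and *Pold1* (0.24) were also higher in Sox1posGP, the last not without Sox1posGP replicate 2 or with no filter. In NSC and NR these were higher too, *Pola1* by 1.07 and 1.55, *Pola2* by 0.79 and 0.76, *Pole* by 0.54 and 0.78 and *Pold1* by 0.42 and 0.95.

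The clamp loader genes went apart. *Rfc5* was at 93.2, 91.5 and 96.2 CPM in Baseline, 86.9, 90.0 and 90.4 in Sox1posGP, 169, 183 and 166 in NSC and 325, 230 and 272 in NR. It was higher in NSC (0.88, SE 0.11) and NR (1.56, SE 0.11), and in NR exceeded NSC by 0.67 (SE 0.10). *Rfc3*, another small subunit, was at 135, 117 and 121 CPM in Baseline, 120, 124 and 120 in Sox1posGP, 81.0, 82.7 and 79.0 in NSC and 61.9, 64.6 and 62.7 in NR, and was the one replication gene to fall in NSC (-0.62, SE 0.07) and in NR (-0.98, SE 0.07). The ratio of *Rfc3* to *Rfc5* counts was 1.33 ± 0.103 (SD, n = 3) in Baseline, 1.36 ± 0.0333 in Sox1posGP, 0.469 ± 0.0144 in NSC and 0.234 ± 0.0455 in NR. *Rfc4* was lower in Sox1posGP (-0.50, SE 0.11) and higher in NSC (0.23), a call lost without NSC replicate 3, Baseline replicate 2 or Baseline replicate 3, and had -0.05 in NR (adjusted p = 0.644, edgeR). *Fen1*, a flap nuclease, held 757 counts over all libraries, the fewest of any member, and shared 1909 of its 2422 exon bases with a gene on the other strand. Whether counting used strand is not given in the sources used here, so its values, 1.26 to 2.61 CPM in the progenitors and 2.96 to 4.36 in NSC and NR, are uncertain.

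The partners of nucleotide supply were called in opposite directions in Sox1posGP. Ribonucleotide reductase makes deoxynucleotides from a large subunit, *Rrm1*, and a small one, *Rrm2*. *Rrm1* was at 218, 193 and 177 CPM in Baseline, 368, 365 and 317 in Sox1posGP, 516, 516 and 540 in NSC and 340, 365 and 342 in NR. *Rrm2* was at 320, 295 and 282 CPM in Baseline, 234, 230 and 213 in Sox1posGP, 796, 925 and 793 in NSC and 610, 721 and 637 in NR. In Sox1posGP *Rrm1* was thus above and *Rrm2* below every Baseline library (0.83, SE 0.09, adjusted p = 7.52e-06, and -0.41, SE 0.09, adjusted p = 0.00319, edgeR). In NSC both rose, by 1.41 and 1.49 (SE 0.09 each), and in NR by 0.83 and 1.13. The ratio of *Rrm2* to *Rrm1* counts was 1.47, 1.53 and 1.59 in Baseline and 0.635, 0.629 and 0.670 in Sox1posGP, and 1.47 to 1.98 over NSC and NR. Sox1posGP lay apart from all other libraries.

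Among the mitotic cyclins, *Ccnb2* stood out in every comparison with Baseline. It was at 27.1, 22.5 and 22.7 CPM in Baseline, 3.18, 2.98 and 2.34 in Sox1posGP, 132, 144 and 134 in NSC and 212, 176 and 188 in NR. It was 8.73-fold lower in Sox1posGP (log2 fold change -3.13, SE 0.16, adjusted p = 8.96e-09), 5.62-fold higher in NSC (2.49, SE 0.10) and 7.87-fold higher in NR (2.98, SE 0.11), in edgeR's quasi-likelihood test. By the study's fuller rule, which also asks for over 4-fold, it was the only member called in Sox1posGP (background 3.87% higher and 1.92% lower) and in NSC (19.5% and 5.9%), and with *Orc1* 1 of the 2 called in NR (22.0% and 6.03%). In NR against NSC 0 members passed 4-fold (7.34% and 0.124%), where 15 replication and 7 mitosis genes were higher by the adjusted p alone.

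Its close relative *Ccnb1*, the cyclin B of the nucleus and spindle, was at 392, 313 and 293 CPM in Baseline, 385, 401 and 374 in Sox1posGP, 442, 456 and 438 in NSC and 630, 510 and 546 in NR. The Sox1posGP libraries overlapped Baseline (0.21, SE 0.11, adjusted p = 0.141, edgeR), and *Ccnb1* was higher in NSC (0.42, SE 0.11) and NR (0.75, SE 0.11). In Sox1posGP it was called higher by the DESeq2 Wald test, with DESeq2 size factors or upper-quartile scaling and with the replicate block. The same held on thinning, in a fit of only the groups compared and without Baseline replicate 1. The ratio of *Ccnb2* to *Ccnb1* counts was 0.0728 ± 0.00433 (SD, n = 3) in Baseline, 0.00732 ± 0.00102 in Sox1posGP, 0.308 ± 0.00881 in NSC and 0.342 ± 0.00399 in NR. *Ccna2*, the cyclin of S and G2 phase, was higher in all 3 groups (0.64, 0.79 and 0.64, SE 0.07 each). *Cdk1*, the kinase these cyclins activate, was at 193, 164 and 160 CPM in Baseline, 282, 296 and 283 in Sox1posGP, 177, 195 and 173 in NSC and 210, 190 and 188 in NR, with every Sox1posGP library above all the others (0.73, SE 0.09, adjusted p = 2.05e-05 against Baseline, edgeR). Its log2 fold change was 0.07 in NSC (adjusted p = 0.467) and 0.18 in NR (adjusted p = 0.0729), a call that was lost without NR replicate 1 or 3 or Baseline replicate 2 or 3.

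**Figure D5:**
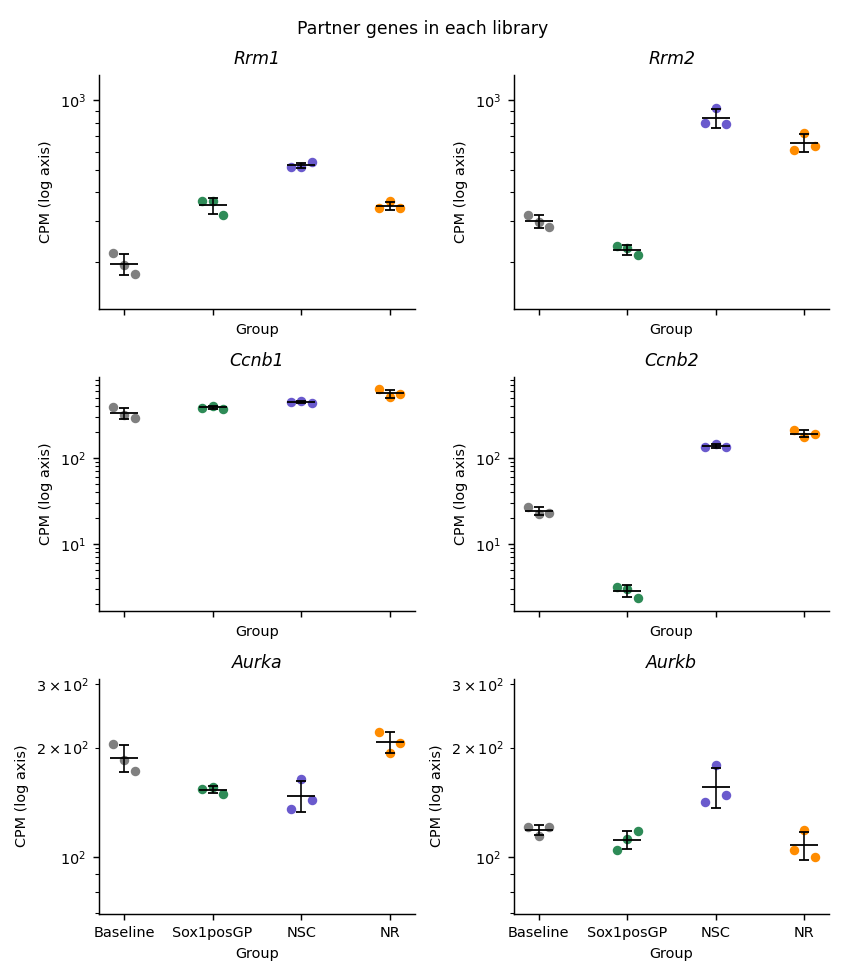
CPM on a log axis (vertical) of 3 pairs of partner genes in each group (horizontal), with points for libraries and bars for the mean and SD of 3. In Sox1posGP, *Rrm1* is above and *Rrm2* below Baseline, and *Ccnb2* drops to between 2.34 and 3.18 CPM while *Ccnb1* overlaps Baseline.

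The kinases and the spindle checkpoint showed the same mixture. *Bub1* and *Bub1b*, which hold the checkpoint at unattached kinetochores, rose together in the stem cell groups. *Bub1* was at 110, 104 and 99.6 CPM in Baseline, 128, 138 and 112 in Sox1posGP, 267, 275 and 278 in NSC and 358, 310 and 285 in NR, and *Bub1b* at 114, 105 and 105, then 120, 132 and 117, then 274, 280 and 283, then 323, 280 and 286 in the same order. Both were higher in NSC (1.38, SE 0.10, and 1.36, SE 0.08) and in NR (1.60, SE 0.10, and 1.45, SE 0.08). Their rises in Sox1posGP were small (0.27, adjusted p = 0.0444, and 0.18, adjusted p = 0.0953, edgeR), and both calls were lost when Baseline replicate 2, Baseline replicate 3 or Sox1posGP replicate 2 was left out. That of *Bub1b* was also lost without Sox1posGP replicate 1 or 3.

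*Aurka*, the Aurora kinase of the spindle poles, was at 204, 186 and 172 CPM in Baseline, 154, 156 and 149 in Sox1posGP, 136, 164 and 143 in NSC and 221, 193 and 206 in NR. *Aurkb*, the Aurora kinase of the centromere, was at 121, 114 and 121 CPM in Baseline, 105, 112 and 118 in Sox1posGP, 142, 179 and 148 in NSC and 105, 118 and 99.8 in NR. In Sox1posGP *Aurka* was lower (-0.29), a call lost without Baseline replicate 1. In NSC *Aurka* was below (-0.35, SE 0.09) and *Aurkb* above Baseline (0.40, SE 0.10), and NR against NSC gave the reverse (0.49, SE 0.09, and -0.54, SE 0.10). The ratio of *Aurka* to *Aurkb* counts was 0.946 ± 0.0273 (SD, n = 3) in NSC, below all other libraries, which ranged from 1.27 to 2.11. *Plk1*, the Polo kinase, was higher in Sox1posGP (0.35), NSC (0.81) and NR (0.68). *Birc5*, a partner of *Aurkb*, was higher in NSC (0.28) and NR (0.31).

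Spindle and kinetochore genes divided by gene. *Kif20a*, a kinesin of cytokinesis, was at 120, 111 and 93.5 CPM in Baseline, 221, 236 and 210 in Sox1posGP, 215, 247 and 237 in NSC and 344, 280 and 261 in NR, and was higher in all 3 groups (1.03, 1.1 and 1.44, SE 0.12 each). It shares 1271 of its 4338 exon bases with *Cdc23* on the other strand. *Nusap1*, which bundles spindle microtubules, was at 312, 262 and 264 CPM in Baseline, 162, 158 and 158 in Sox1posGP, 213, 207 and 224 in NSC and 202, 198 and 178 in NR. It was lower than Baseline in all 3 groups (-0.81, SE 0.09, -0.38, SE 0.08, and -0.54, SE 0.08), as was *Tpx2*, an activator of *Aurka* at the spindle (-0.51, -0.34 and -0.51, SE 0.09 each).

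*Cenpf*, a large kinetochore protein, was at 110, 104 and 95.6 CPM in Baseline, 114, 119 and 115 in Sox1posGP, 271, 210 and 313 in NSC and 152, 180 and 191 in NR. The change in Sox1posGP was 0.16 (adjusted p = 0.364, edgeR), and *Cenpf* was higher in NSC (1.35, SE 0.13) and NR (0.75, SE 0.13) and lower in NR than in NSC (-0.60, SE 0.12). *Cenpe*, a kinetochore kinesin, was lower in Sox1posGP (-0.68) and higher in NSC (0.79) and NR (0.52). The kinesins *Kif11* and *Kif23* were higher in NSC (1.09 and 1.35) and NR (0.80 and 1.33), and neither was called in Sox1posGP (-0.08 and 0.24). Of the genes that work with the anaphase-promoting complex, the activator *Cdc20* was higher in all 3 groups (0.81, 0.66 and 1.05), and *Ube2c*, its ubiquitin-conjugating enzyme, was lower in Sox1posGP (-0.26) and NSC (-0.30). The first call was lost without Baseline replicate 1 or Sox1posGP replicate 2 and the second with no filter on low counts.

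The chromosome surface protein *Mki67*, the usual Ki-67 marker, was at 105, 111 and 109 CPM in Baseline, 168, 162 and 176 in Sox1posGP, 285, 223 and 290 in NSC and 180, 211 and 204 in NR. Every other library lay above Baseline (0.64, 1.30 and 0.87, SE 0.10 each). *Top2a*, the topoisomerase that untangles sister chromatids, was at 543, 523 and 442 CPM in Baseline, 375, 374 and 354 in Sox1posGP, 767, 607 and 792 in NSC and 585, 548 and 563 in NR. It was lower in Sox1posGP (-0.45, SE 0.11, adjusted p = 0.00373, edgeR) and higher in NSC (0.52, SE 0.10), with 0.17 in NR (adjusted p = 0.157). The NR change was called with DESeq2 size factors, upper-quartile scaling or the DESeq2 Wald test. Of the 5 usual proliferation markers, Sox1posGP thus had *Mki67* and *Pcna* called higher and *Mcm2* and *Top2a* called lower. *Ccnb1* was not called in the main fit but was called higher in the alternatives named above.

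As a description over the 12 libraries, which fall into 4 groups and share their depth by group, the replication genes most like the mean of the other replication genes were *Mcm4* (Pearson r of log2 CPM 0.99) and *Mcm7* (0.98), and the least like were *Rfc3* (-0.96) and *Prim1* (0.26). For mitosis they were *Bub1b* (0.98) and *Kif23* (0.97), against *Cdk1* (-0.43) and *Tpx2* (-0.32). An r above 0.8 was found for 20 of 28 replication genes and 10 of 21 mitosis genes.

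Some chromosomes shifted as a whole between groups, and members on several of them are given beside that shift. In Sox1posGP the median log2 fold change of expressed genes was -0.43 on chromosome 16 and -0.29 on chromosome 12. It was 0.16 on chromosome 10, where *Prim1* and *Cdk1* lie. Of the 3 members on chromosome 16, *Rfc4* was at -0.08 from that median, *Cdc45* 0.57 above it and *Mcm4* 0.90 above it, and *Rrm2* on chromosome 12 was at -0.12 from its own. In NSC and NR the median of chromosome 8 was 0.54 and 0.39, and 6 replication genes lie there. Relative to it, *Mcm5* was still 0.80 and 1.17 higher, *Cdt1* 0.55 and 1.04, *Gins2* 0.72 and 0.72, *Gins3* 0.44 and 0.21 and *Orc6* 0.10 and 0.42, while *Gins4* was at -0.64 and -0.02. Chromosome 1, with *Mcm3*, *Mcm6* and *Cenpf*, had medians of -0.33 in NSC and -0.39 in NR. Chromosome 19, with *Pola2*, *Fen1* and *Kif11*, had 0.27 in NSC and 0.29 in NR. The part of these shifts in the members' values was not tested. Exon bases are shared with another gene by 16 members, 9 of replication and 7 of mitosis.

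Genes of the same pathways outside the 49 members were counted by the same rule. Of 40 other replication genes, 21 were higher and 7 lower in Sox1posGP (52.5% and 17.5%, background 21.6% and 22.7%), 25 and 11 in NSC (62.5% and 27.5%, background 44.4% and 33.7%), and 27 and 11 in NR (67.5% and 27.5%, background 45.6% and 34.1%), with median log2 fold changes of 0.25, 0.49 and 0.51. *Dna2*, a nuclease that trims Okazaki flaps, was at 6.14 to 10.6 CPM in Baseline, 34.2 to 38.8 in Sox1posGP, 80.3 to 85.4 in NSC and 58.1 to 75 in NR. *Uhrf1*, which brings DNA methyltransferase to the fork, was at 62.4 to 70.9, 174 to 185, 322 to 347 and 268 to 296 CPM in the same order. Their log2 fold changes in NSC were 3.47 (SE 0.16) and 2.31 (SE 0.08), and each was also higher in Sox1posGP (2.26, SE 0.17, and 1.40, SE 0.08), as was the chromatin assembly gene *Chaf1b* (1.20, SE 0.09). *Wdhd1*, which ties helicase to polymerase, was higher in Sox1posGP (0.58), NSC (2.09) and NR (1.77).

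Of 53 other mitosis genes, 10 were higher and 18 lower in Sox1posGP, with a median of -0.10, and 28 were higher in NSC and 28 in NR while 16 and 19 were lower, with medians of 0.39 and 0.38. These shares were 18.9% higher and 34.0% lower in Sox1posGP, 52.8% and 30.2% in NSC and 52.8% and 35.8% in NR, near the background of all genes in NSC and NR. *Cdc25b*, the phosphatase that starts Cdk1 activation, was at 187 to 217 CPM in Baseline, 78.6 to 87.1 in Sox1posGP, 75.6 to 87.6 in NSC and 37.0 to 52.3 in NR. The spindle gene *Ckap2l* (-1.16, -0.78 and -1.18) and the outer kinetochore gene *Ndc80* (-0.90, -0.64 and -0.66) were likewise lower in all 3 groups. *Pttg1*, securin, which holds separase until anaphase, was at 0.140 to 0.834 CPM in the 6 progenitor libraries, 37.4 to 41.2 in NSC and 63.5 to 92.1 in NR. *Ccnf* was higher in all 3 groups (0.67, 2.47 and 2.92), and *Ckap2* in NSC (2.04) and NR (1.80).

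Of 21 E2F, retinoblastoma, cyclin E, DREAM and MuvB genes, 9 were higher and 4 lower in Sox1posGP (42.9% and 19.0%, background 21.6% and 22.7%). In NSC 15 were higher and 4 lower (71.4% and 19.0%, background 44.4% and 33.7%). In NR 12 were higher and 6 lower (57.1% and 28.6%, background 45.6% and 34.1%). NR against NSC had 3 higher and 14 lower (14.3% and 66.7%, background 30.0% and 26.6%). The cyclins E that open S phase, *Ccne1* and *Ccne2*, and *E2f7* were the largest changes in Sox1posGP (1.58, 1.56 and 1.56). *Ccne1* was at 10.9 to 14.2 CPM in Baseline, 36.2 to 39.3 in Sox1posGP, 76.6 to 93.5 in NSC and 113 to 157 in NR, and *Ccne2* at 12.8 to 16.1, 41.5 to 46.0, 68.5 to 81.0 and 52.7 to 65.1. *E2f7*, a repressor made in S phase, was higher in NSC and NR as well (2.72 and 2.14). *Mybl2*, which joins MuvB on CHR promoters, was at 24.2 to 25.9 CPM in Baseline, 39.4 to 41.7 in Sox1posGP, 125 to 148 in NSC and 516 to 894 in NR. NR exceeded NSC in *Mybl2* by a log2 fold change of 2.32 (SE 0.15, adjusted p = 2.91e-07, edgeR), where *Ccne1* (0.62) and *E2f4* (0.24) were the only others called higher. *E2f4* is named here after its value was seen. The highest *Mybl2* library was again NR replicate 1, and the part of pluripotent or other cell types in it was not tested.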

How the data were processed

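RNA was sequenced from 12 libraries in 4 groups of 3, mapped to groups by their labels. The authors deposited raw read counts per gene for 45706 Ensembl genes in 12 columns, without normalization. The submitters' processing notes name STAR 2.6, RSEM 1.1.14 and mm10, with no role given, and the strand setting is not given in the sources used here. Symbols, exons and coordinates came from GENCODE M21, and identifiers without a symbol held 0.124% of counts. No label says that same-numbered libraries were prepared together.

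Counts were scaled by TMM and filtered by filterByExpr in edgeR 4.0.16 (limma 3.58.1, R 4.3.3), and glmQLFit and glmQLFTest were run on all 12 libraries with no block over 17003 genes. The log2 fold change used a prior count of 0.125 and log2 CPM one of 2. The calls were tested on simulated data. p-values measure the spread between these samples only, and 3 libraries a group limit the precision. The lowest library total was 3407066, in Sox1posGP. Replicates were compared by chi-square of counts per degree of freedom, which also grows with depth. Pairs gave 1.54 to 2.07 in Sox1posGP, 1.66 to 6.72 in Baseline, 11.5 to 55.1 in NSC and 20.6 to 53.3 in NR. None were duplicates, but the Sox1posGP pairs and Baseline replicates 2 and 3 lay near counting noise. The fit shared its estimate of the spread over all groups.

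Same-numbered NR and NSC libraries deviated together (correlations of 0.23, 0.49 and 0.30), so the replicate number was taken as pairing them, from the data and not from a label. Of these libraries 4 of 6 correlated best with their own number. The main fit did not use this pairing, and the replicate block was an alternative. The members, the pathway lists and the comparisons were chosen with earlier results of these data known. Named members are the usual markers *Mki67*, *Pcna*, *Top2a*, *Mcm2* and *Ccnb1*, and in each comparison and set the 3 called members with the largest change; other genes named are the 3 largest per pathway list in Sox1posGP and NSC. Other values of members are given to account for all 49. DESeq2 1.42.0, other scalings, filters, prior counts, the block, thinning and the omission of each library were alternatives, and leaving out *Ccnb2* or members that share exon bases and the median of changes were added after seeing the data.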

Additional observations from a re-analysis of the deposited data

How the results depend on the processing

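Counts of members by direction and set kept within 1.5 times under the other scalings, the DESeq2 Wald test, no filter, the replicate block and thinning. Also asking for over 4-fold left 0 in every count except mitosis genes lower in Sox1posGP (1), mitosis genes higher in NSC (1) and in NR (1) and replication genes higher in NR (1). Without the 16 members that share exon bases, Sox1posGP had 3 replication genes lower and 4 mitosis genes higher and 4 lower, NSC 2 and NR 1 mitosis genes lower, and NR against NSC 4 mitosis genes higher, since fewer genes were counted. Leaving out each library in turn gave 3 to 5 replication genes lower in Sox1posGP, 1 to 2 in NSC and 4 to 7 mitosis genes higher in NR against NSC. A fit of only the groups compared gained 8 calls of members and lost 0 in Sox1posGP. In NR against NSC that fit lost 6 calls and gained 1. The replicate block, fitted over all 12 libraries, changed no call of a member in NSC, NR or NR against NSC. In Sox1posGP it lost *Bub1b* and gained *Ccnb1*. A fit that paired only NR and NSC libraries was not run, so the effect of that pairing alone was not tested. Same-numbered libraries of the comparisons with Baseline gave correlations from -0.05 to 0.05, and 4, 0 and 6 of 6 libraries in Sox1posGP, NSC and NR correlated best with their own number, so there the block joins libraries that share only a number. The mitosis minus replication difference in Sox1posGP, NSC and NR was 0.32, 0.60 and 0.13 with the median level over members and -0.12, -0.11 and -0.34 without *Ccnb2*, and in Sox1posGP -0.10 with the median of changes. Leaving out each library gave -0.31 to -0.26, -0.05 to 0.01 and -0.26 to -0.21. The member with the fewest counts was *Fen1*.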
